A study of Homo sapiens with 51 samples.

Results

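H1 human embryonic stem cells were compared after 24 h in BMP4 alone and after 24 h in Activin together with BMP4. The comparison takes 6 of the 51 libraries of a time course that runs from 0 to 96 h: the 3 libraries with BMP4 at 50 ng/mL and the 3 with Activin at 100 ng/mL plus BMP4 at 10 ng/mL. H1 is an established cell line kept on growth factor-reduced Matrigel in mTeSR1. Both treated groups were moved to TeSR E5 with 3.2 µM insulin, 20 ng/mL FGF2 and 1 µM of a compound that the labels spell LY29004. The untreated group at 0 h (3 libraries) stayed in the maintenance medium, so its comparison with treated cells also crosses a change of medium. The conditions differ in Activin and in the BMP4 dose, and the effects of these cannot be told apart here. RNA of whole cultures was sequenced, so fewer cells of a type and less RNA per cell cannot be told apart in any value below. Nothing in the labels ties a replicate number to a culture of its own, so the spread behind each p-value may be technical.

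Activin and NODAL bind the same type I and type II receptors, which phosphorylate SMAD2 and SMAD3. These join SMAD4 and enter the nucleus, where FOXH1 and, in the gastrula, EOMES bring them to DNA. BMP4 acts through other receptors and SMAD1, SMAD5 and SMAD9. In the mammalian embryo BMP4 acts on the epiblast, WNT3 and NODAL are switched on, and together they set up the primitive streak, from which mesoderm and endoderm leave. LEFTY1, LEFTY2 and CER1 are secreted inhibitors that the NODAL pathway switches on, and NOG and CHRD bind BMP ligands outside the cell. BMP signalling without NODAL input drives pluripotent cells towards amnion and related fates in culture.

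Promoter sequences of 6 genes described below are shown first, because SMAD proteins and FOXH1 act on such DNA. Each line is the 250 bases before the transcription start, 5′ to 3′ on the strand of the gene, from RefSeq (GRCh38.p14). In all 6, capitals mark the FOXH1 motif AATNNACA, the SMAD3 and SMAD4 motif CAGAC and the SMAD1 and SMAD5 motif GGNGCC, each on either strand. A capital C at the very end of the SP5 and DLX2 lines opens a CAGAC that runs past the start. The regions are chr9:14722734-14722983, minus strand (CER1), chr1:226223414-226223663, plus strand (MIXL1), chr12:7789152-7789401, plus strand (NANOG), chr2:170715087-170715336, plus strand (SP5), chr5:154478228-154478477, minus strand (HAND1), and chr2:172102901-172103150, minus strand (DLX2).
CER1: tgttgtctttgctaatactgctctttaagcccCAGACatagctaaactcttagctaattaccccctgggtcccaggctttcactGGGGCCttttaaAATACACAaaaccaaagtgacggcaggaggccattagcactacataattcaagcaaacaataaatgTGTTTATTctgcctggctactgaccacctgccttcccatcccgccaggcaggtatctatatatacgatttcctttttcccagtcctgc
MIXL1: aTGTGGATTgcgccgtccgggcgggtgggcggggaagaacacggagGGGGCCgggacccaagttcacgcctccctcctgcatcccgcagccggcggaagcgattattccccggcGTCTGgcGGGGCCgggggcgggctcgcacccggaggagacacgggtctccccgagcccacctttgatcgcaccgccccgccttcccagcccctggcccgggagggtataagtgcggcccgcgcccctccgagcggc
NANOG: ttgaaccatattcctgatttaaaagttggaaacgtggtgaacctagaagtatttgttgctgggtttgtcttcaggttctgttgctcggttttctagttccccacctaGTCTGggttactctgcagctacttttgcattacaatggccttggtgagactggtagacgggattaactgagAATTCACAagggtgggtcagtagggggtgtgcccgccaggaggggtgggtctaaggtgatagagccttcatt
SP5: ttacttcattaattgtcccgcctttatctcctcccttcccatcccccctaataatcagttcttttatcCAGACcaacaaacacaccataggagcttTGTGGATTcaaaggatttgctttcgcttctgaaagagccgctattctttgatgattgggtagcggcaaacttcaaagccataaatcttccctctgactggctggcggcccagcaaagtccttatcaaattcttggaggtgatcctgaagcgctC
HAND1: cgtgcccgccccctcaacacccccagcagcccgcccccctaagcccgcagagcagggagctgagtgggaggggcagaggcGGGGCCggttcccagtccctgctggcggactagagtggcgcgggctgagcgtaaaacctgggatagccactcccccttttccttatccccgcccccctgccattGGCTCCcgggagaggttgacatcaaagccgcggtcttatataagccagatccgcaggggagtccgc
DLX2: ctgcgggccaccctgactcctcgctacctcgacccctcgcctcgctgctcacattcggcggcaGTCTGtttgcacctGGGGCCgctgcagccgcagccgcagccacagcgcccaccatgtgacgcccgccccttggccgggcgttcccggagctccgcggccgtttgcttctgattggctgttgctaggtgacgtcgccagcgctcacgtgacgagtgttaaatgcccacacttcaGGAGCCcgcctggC
The first 4 genes were lower with BMP4 than with Activin+BMP4 at 24 h, and HAND1 and DLX2 were higher. The first 4 were picked because they hold AATNNACA, and TBXT, EOMES, NODAL, GSC and EVX1, also lower with BMP4, held none. The SMAD motifs do not divide the 6: GGNGCC is also in CER1 and MIXL1, and CAGAC in DLX2. Nor does AATNNACA divide the named genes beyond these 6: promoters of AMER2 and DHRS3, both higher with BMP4, hold it. A promoter was at hand for 13129 of the 19603 genes tested (67%) and for 438 of the 787 genes that differed (55.7%). Shares of genes given here are all of tested genes with a promoter. Within 250 bases before to 50 after a start, AATNNACA was found for 8.78% of these genes. It was found for 23.2% of those lower with BMP4 (41 of 177) and for 7.66% of those higher with BMP4 (20 of 261). CAGAC was found for 51.5% of all genes, 62.1% of the lower and 56.7% of the higher ones. GGNGCC was found for 83.8% of all genes and for 79.7% of each of the other sets. Counted per promoter, GGNGCC was in 76.6% of all, 69.9% of the lower and 74.6% of the higher set. The T-box motif AGGTGT was found for 12.9%, 15.3% and 14.2%, and the TCF/LEF motif CTTTGAT for 2.16%, 5.08% and 2.3%, in the same order. These shares count a gene if any of its promoters held the motif. There were 18986 promoters for all 13129 genes, 296 for the 177 lower and 370 for the 261 higher ones. Counted per promoter, in the same order, AATNNACA was in 6.75%, 16.6% and 5.95% and CAGAC in 44.2%, 48.6% and 47.6%. AGGTGT was in 9.79%, 9.8% and 10.8% of promoters and CTTTGAT in 1.61%, 3.04% and 1.62%. Mean GC content was 62.9% in all promoters, 60.9% in the lower and 61.8% in the higher set. Matches of different motifs were counted separately and may overlap. They are a description of letters and carry no test.

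Of 19603 genes tested, 787 (4.01%) differed between BMP4 and Activin+BMP4 at 24 h: 473 were higher with BMP4 (2.41%) and 314 lower (1.6%). Calls needed a difference of at least 2-fold and, from edgeR's quasi-likelihood test, a p under 0.05 after Benjamini-Hochberg adjustment over all genes. Without the 2-fold threshold 5735 genes (29.3%) passed. The median size was 1.5 on the log2 scale in both directions, and 51 of the higher and 45 of the lower genes passed 8-fold. At low levels the calls rest on few counts: 160 of the higher and 105 of the lower genes had a mean under 1 CPM in the group where they were higher. CPM is the count scaled to the library's total multiplied by its TMM scaling factor. The 3 libraries of each group did not overlap for 445 of the 473 higher and 305 of the 314 lower genes, against 45.2% of all genes tested. Levels below are CPM per library in the order of replicates 1, 2 and 3, not divided by gene length, and fold changes are BMP4 over Activin+BMP4 with a standard error (SE) on the log2 scale. The SE was worked back from the test, as the size of the log2 fold change divided by the square root of the F statistic.

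**Figure D1:**
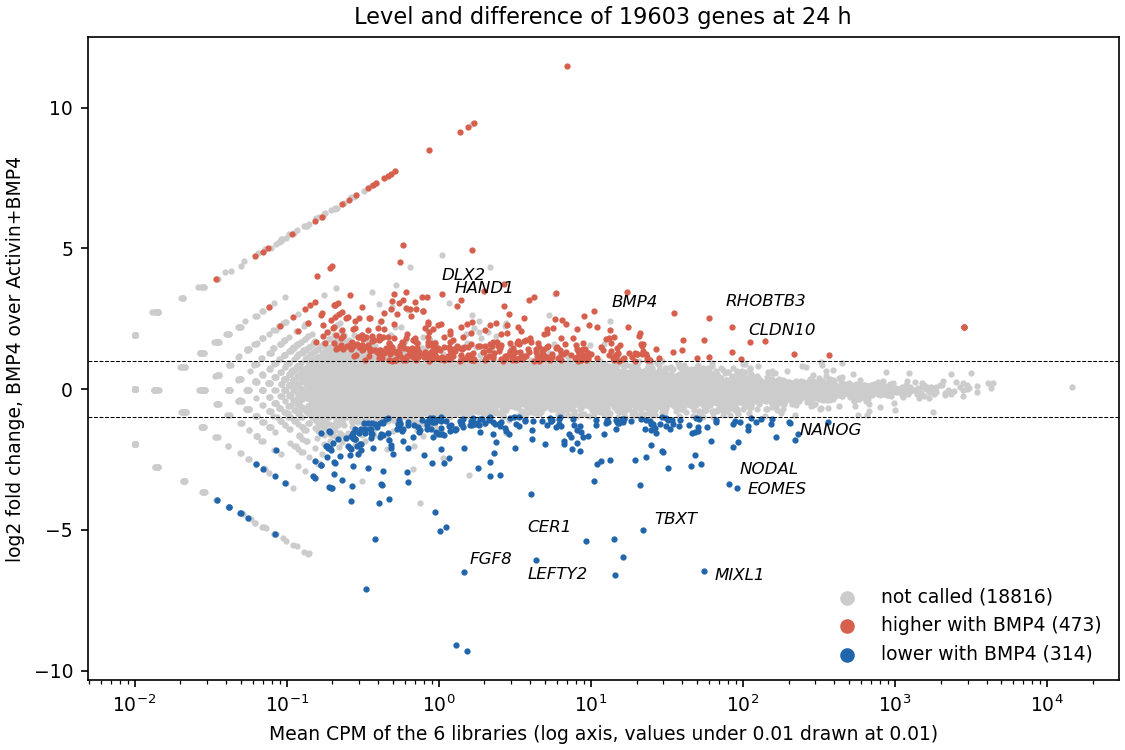
Each point is 1 of 19603 genes, with the mean CPM of the 6 libraries on a log x axis and the log2 fold change of BMP4 over Activin+BMP4 on the y axis; dashed lines mark 2-fold. MIXL1, LEFTY2, FGF8 and CER1 lie below -5, while labelled genes higher with BMP4 stay under 4. The outermost points at low CPM include gene IDs with 0 counts in one group, whose fitted value depends on a prior count.

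The 6 libraries were alike in depth, with 22893350 to 25594528 counts, scaling factors from 0.9931 to 1.01 and 2.03% to 3.18% mitochondrial counts. Of 8 markers of embryonic stem cells fixed as a list, NANOG was called lower and 0 were called higher, and their summed level was 8771 to 8892 CPM with Activin+BMP4 and 8557 to 8614 CPM with BMP4. Libraries of the 2 groups differed in some non-coding RNA. A set of 3 gene IDs with identical counts, next to ribosomal RNA genes on the short arm of chromosome 21, held 0.171% to 0.514% of counts with Activin+BMP4 and 1.2% to 1.58% with BMP4, and 0.117% to 1.81% over all 51 libraries. With the level of these IDs as a covariate, a fit chosen after seeing the data, 601 genes were called at 24 h, among them 547 of the 787.

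Secreted inhibitors of NODAL were lower with BMP4 in 4 of 5 cases and higher in 0, where 1.6% of all genes were lower and 2.41% higher. LEFTY2 stood at 28.8, 29 and 28.4 CPM with Activin+BMP4 and at 0.216, 0.339 and 0.313 CPM with BMP4, a 97.5-fold difference (log2 -6.61, SE 0.29, adjusted p = 3.62e-22). LEFTY1 stood at 27.7, 28.3 and 27.1 CPM against 0.776, 0.424 and 0.86 CPM (39.9-fold, adjusted p = 9.85e-23). Both genes lie on chromosome 1 in GRCh38, LEFTY1 at 225886282 to 225911382 and LEFTY2 at 225936598 to 225941489, and 46.6% of the exon bases of LEFTY1 are shared with another gene model on the same strand. CER1, which binds NODAL and BMP ligands, stood at 16.8, 18.4 and 18.8 CPM against 0.345, 0.762 and 0.195 CPM (41.6-fold, adjusted p = 3.35e-23). For all 3 the lowest library with Activin+BMP4 lay far above the highest with BMP4, and the untreated level lay between: 5.12 ± 0.329 CPM for LEFTY2, 7.42 ± 0.809 for LEFTY1 and 4.13 ± 0.153 for CER1 (SD, n = 3). Against untreated cells LEFTY2 was called higher with Activin+BMP4 (log2 2.49) and lower with BMP4 (log2 -4.12), as were LEFTY1 (1.9 and -3.42) and CER1 (2.12 and -3.25). In all, 1583 genes (8.08%) were called between Activin+BMP4 and untreated cells, 4.38% higher and 3.7% lower. Between BMP4 and untreated cells 1413 (7.21%) were, 4.92% higher and 2.29% lower. These comparisons share libraries with the one at 24 h and are given side by side only. The fourth inhibitor was FST, which binds Activin itself, at 71.7 to 77.4 CPM against 26.1 to 27.9 CPM (2.8-fold); it was named after its values were seen. FSTL3, a related binder of Activin, was not called (4.4 to 5.34 against 4.32 to 4.45 CPM).

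Among the ligands of the pathway, 2 of 5 were lower and 1 was higher with BMP4, beside 1.6% and 2.41% of all genes. NODAL stood at 152, 150 and 144 CPM with Activin+BMP4 and at 14.3, 16.3 and 12.5 CPM with BMP4 (10.3-fold, log2 -3.37, SE 0.11, adjusted p = 4.18e-26). Untreated cells held 10.3 ± 0.347 CPM, so NODAL was called higher than untreated with Activin+BMP4 (log2 3.85) while the BMP4 value was near the start (log2 0.48, not called). On chromosome 10, 41.2% of the exon bases of NODAL overlap a gene on the opposite strand, and the sources used here do not say whether counting used strand. GDF3, a ligand of the same receptors and named after its values were seen, was 2.58-fold lower with BMP4. INHBB, a subunit of activin B, was higher with BMP4 at 0.59 to 0.69 CPM against 0.0411 to 0.264 CPM, but this call was lost without replicate 1 of Activin+BMP4 (adjusted p = 0.0717).

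Receptors and co-receptors of the pathway gave 1 call and intracellular members 1, where 4.01% of all genes tested were called. Of 6 receptors and co-receptors tested, 0 were lower and CFC1 alone was higher with BMP4, at 0.339 to 0.391 CPM against 0, 0.0417 and 0 CPM. TDGF1, a co-receptor of NODAL, stood at 693 to 722 CPM with Activin+BMP4 and 564 to 567 CPM with BMP4, a 1.25-fold difference that passed the adjusted p but not the 2-fold threshold. Of 11 intracellular members 1 was called lower, the feedback inhibitor PMEPA1 (2.39-fold, named after its values were seen). SMAD3 fell just short of the threshold at 28.5 to 30.2 against 14.1 to 16.1 CPM (1.98-fold, adjusted p = 1.01e-14). SMAD2, SMAD4 and FOXH1 lay within 1.05-fold. Over the 27 members tested the median log2 difference was -0.11, beside 0.01 over all genes.

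**Figure D2:**
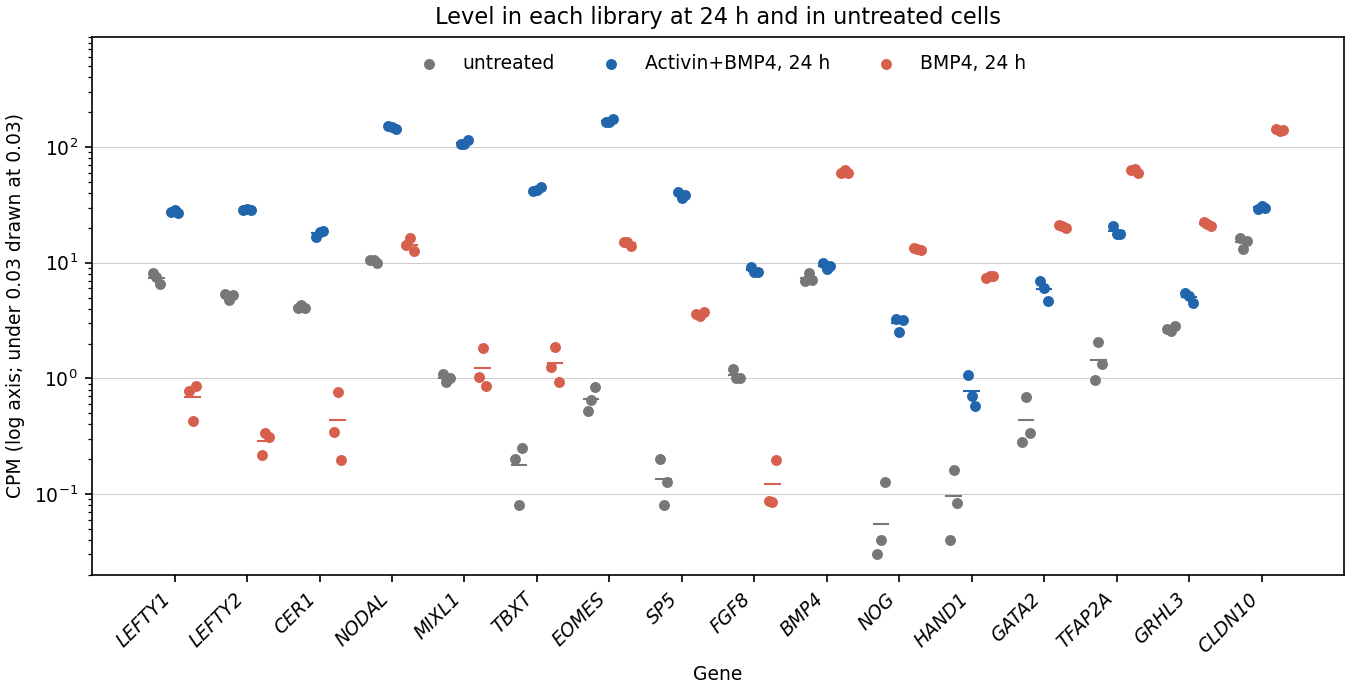
CPM on a log axis of 16 genes in each of the 3 untreated, 3 Activin+BMP4 and 3 BMP4 libraries (points) with group means (bars). For LEFTY1, LEFTY2 and CER1 the untreated points lie between the conditions, and for CLDN10 and BMP4 the Activin+BMP4 points lie between the untreated and the BMP4 ones.

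Primitive streak transcription factors were the list with the lowest median, -1.56 on the log2 scale: 7 of 16 members tested were lower with BMP4 and 0 higher. Across all genes the median was 0.01, with 1.6% lower and 2.41% higher. MIXL1, a homeobox gene of the streak at chromosome 1, 226223618 to 226227054, stood at 107, 107 and 114 CPM with Activin+BMP4 and at 1.03, 1.82 and 0.86 CPM with BMP4 (88.6-fold, log2 -6.47, SE 0.12, adjusted p = 8.37e-36). The BMP4 libraries thus held about the untreated level of 1.01 ± 0.0798 CPM (SD, n = 3; log2 0.29 over untreated, not called). TBXT, the T-box factor brachyury, stood at 41.8, 42.3 and 45 CPM against 1.25, 1.86 and 0.938 CPM (32-fold, adjusted p = 1.72e-26), and the BMP4 libraries were also above untreated cells at 0.178 ± 0.0879 CPM (log2 2.89, called). EOMES, a T-box factor that acts with SMAD2 and SMAD3, stood at 166, 165 and 175 CPM against 15.1, 15.2 and 13.9 CPM (11.4-fold, adjusted p = 6.02e-28). It too was above the untreated level in both conditions, with log2 7.97 for Activin+BMP4 and 4.46 for BMP4.

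GSC, a homeobox factor of the anterior streak, stood at 2.47, 2 and 2.07 CPM with Activin+BMP4 and at 0.129, 0.0424 and 0.0391 CPM with BMP4 (29.6-fold, adjusted p = 1.62e-12). EVX1, a homeobox factor of the posterior streak, was 5.69-fold lower with BMP4 (20.8 to 23.6 against 3.18 to 4.65 CPM), with 15.9% of its exon bases shared with an antisense gene. FOXA2, a factor of the anterior streak and endoderm, was called lower from 0.0417 to 0.411 CPM with overlapping libraries, and the call was lost without replicate 1 of Activin+BMP4 (adjusted p = 0.333) or without replicate 1 (0.0584) or 3 (0.0674) of BMP4. Not every streak gene differed. NKX1-2 stood at 188 to 200 CPM against 181 to 195 CPM, both above untreated cells at 75.6 ± 2.85 CPM. MESP1 and TBX6, which mark mesoderm leaving the streak, were at or under 1.51 CPM in all 6 libraries and were not called.

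The definitive endoderm list held 5 genes lower and 0 higher of 20 tested, and 8 of the 20 had a mean under 1 CPM in both groups. For this and the 2 mesoderm lists below, the shares over all genes were 1.6% lower and 2.41% higher. Besides CER1, GSC and FOXA2, the called members were GATA4 and SOX17. GATA4, a zinc finger factor of endoderm and heart, stood at 1.6, 1.38 and 1.01 CPM against 0.172, 0.339 and 0.274 CPM (5.02-fold, adjusted p = 1.05e-05). SOX17, a defining factor of endoderm, stood at 0.699, 0.792 and 0.44 CPM against 0.345, 0.254 and 0.0391 CPM (3.07-fold, adjusted p = 0.0213). These levels rest on few counts, and the SOX17 call was lost without replicate 1 (adjusted p = 0.0622) or 2 (0.0827) of Activin+BMP4 or replicate 3 of BMP4 (0.152). The list's count fell to 3 without replicate 1 of Activin+BMP4 or replicate 3 of BMP4. HHEX, CXCR4 and FOXA1 were not called. Among 19 genes of nascent and paraxial mesoderm 2 were lower, the receptor APLNR at 2.22 to 2.46 against 0.974 to 1.09 CPM, and SNAI2, whose call was lost without replicate 1 of Activin+BMP4 (adjusted p = 0.101) or replicate 3 of BMP4 (0.112). In the lateral plate and extraembryonic mesoderm list 7 of the 18 members tested were higher and 2 lower with BMP4, GATA4 among the latter.

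WNT ligands moved in both directions. WNT3, the ligand that starts the streak in the mouse, stood at 48, 49.4 and 47 CPM with Activin+BMP4 and at 10.9, 10.4 and 10.1 CPM with BMP4 (4.6-fold, adjusted p = 2.57e-22), and both conditions were above untreated cells at 2.2 ± 0.427 CPM. WNT8A, another streak ligand, was 6.91-fold lower with BMP4 (2.59 to 3.83 against 0.345 to 0.625 CPM). RSPO1, an enhancer of WNT signalling, was called higher with BMP4 from 0.254 to 0.352 CPM against 0, 0 and 0.044 CPM. Of the 11 ligands and R-spondins tested, 3 were higher and 2 lower, where 2.41% of all genes were higher and 1.6% lower.

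Called targets and inhibitors of WNT signalling were mostly lower, with 3 of 8 effectors and targets and 3 of 10 inhibitors lower, and 0 and 1 higher. Of all genes tested 1.6% were lower and 2.41% higher. The inhibitors as a list went the other way, with a median log2 difference of 0.255. Their summed level was 631 to 643 CPM with Activin+BMP4, 965 to 1024 CPM with BMP4 and 1277 to 1317 CPM in untreated cells. SP5, a zinc finger gene that beta-catenin switches on, stood at 40.5, 36 and 38.2 CPM against 3.58, 3.47 and 3.71 CPM (10.6-fold, adjusted p = 6.57e-22). LEF1, a factor that works with beta-catenin on DNA, stood at 10.7, 10.3 and 11.4 CPM against 3.97, 3.35 and 3.52 CPM (2.99-fold, adjusted p = 6.52e-13). AXIN2, a feedback inhibitor, passed the adjusted p at 1.64-fold lower but not the 2-fold threshold. DKK1, a secreted inhibitor of the WNT co-receptor, stood at 2.01, 1.42 and 2.2 CPM against 0.172, 0.466 and 0.274 CPM (6.08-fold, adjusted p = 1.45e-05). DKK4 was called from 0.0411 to 0.22 CPM against 0 counts, a call lost without replicate 3 of Activin+BMP4 (adjusted p = 0.16) or without replicate 2 (0.0503) or 3 (0.054) of BMP4. Of 16 receptors 1 was higher and 2 were lower with BMP4. FZD5 stood at 214, 208 and 223 CPM against 92.6, 88.6 and 94.4 CPM (2.34-fold lower), and FZD10 at 5.22, 4.96 and 4.31 CPM against 1.47, 1.99 and 2.38 CPM (2.47-fold lower), both named after their values were seen. FZD2 was higher, at 30.5, 32.7 and 34.7 CPM against 8.67, 8.59 and 9.33 CPM (3.69-fold). Its untreated level was 26.7 ± 2.44 CPM, so the called change from the start was a lower level with Activin+BMP4 (log2 -1.59).

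FGF ligands were lower with BMP4 in 4 of 10 cases and higher in 0, while 0 of 5 receptors were called. Over all genes tested 1.6% were lower and 2.41% higher. FGF8, a ligand of the streak, stood at 9.12, 8.34 and 8.27 CPM against 0.0862, 0.0847 and 0.195 CPM (66.5-fold, log2 -6.06, SE 0.25, adjusted p = 1.23e-22). Its untreated level of 1.07 ± 0.115 CPM lay between. FGF4 stood at 13.5, 14 and 14.2 CPM against 3.15, 2.92 and 3.05 CPM (4.56-fold, adjusted p = 5.56e-17), with 2.76 ± 0.366 CPM in untreated cells. FGF19 differed from FGF4 in its relation to the start: Activin+BMP4 libraries held 13.7 to 15.5 CPM, about the untreated 14.3 ± 0.0585 CPM, and BMP4 libraries 3.83 to 5.38 CPM. FGF18 was 4.22-fold lower with BMP4. Among 12 genes of ERK feedback, DUSP4, a phosphatase of ERK, was higher with BMP4 (21 to 21.5 against 8.05 to 9.07 CPM) and 0 were lower. The untreated level of DUSP4 was 28.9 ± 0.898 CPM, above both conditions.

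**Figure D3:**
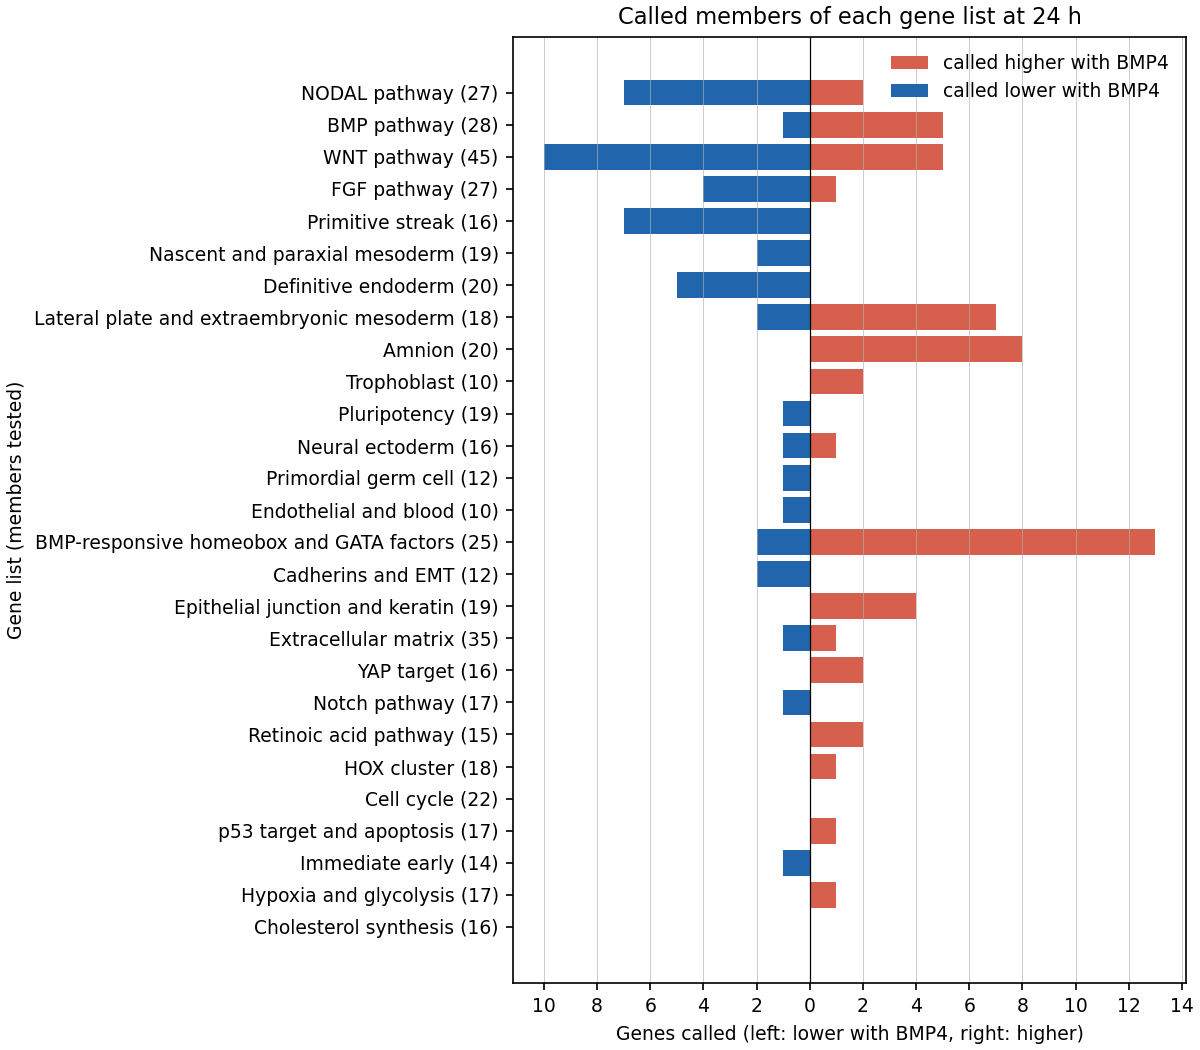
Number of members called at 24 h in each of 27 gene lists, to the right where higher and to the left where lower with BMP4, with the members tested in brackets. WNT pathway genes have the most lower calls (10 of 45), and homeobox and GATA factors the most higher calls (13 of 25). Lists share members.

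Genes of the BMP pathway were called higher with BMP4 in 5 of 28 cases and lower in 1, where 2.41% of all genes were higher and 1.6% lower. BMP4 itself stood at 9.9, 8.84 and 9.33 CPM with Activin+BMP4 and at 60, 63.5 and 59.8 CPM with BMP4 (6.53-fold, log2 2.71, SE 0.07, adjusted p = 4.34e-30), against 7.4 ± 0.703 CPM in untreated cells. Direct targets of SMAD1 and SMAD5 were above the untreated level in both conditions. ID1 stood at 260 to 276 CPM with Activin+BMP4 and 340 to 378 CPM with BMP4 (1.33-fold), from 82.3 ± 2.3 CPM in untreated cells. ID2 was not called at 104 to 111 against 99.6 to 108 CPM (adjusted p = 0.716). ID4 alone of the 4 ID genes passed 2-fold, at 32.8, 32.7 and 30 CPM against 70.6, 68.1 and 65.9 CPM (2.14-fold, adjusted p = 4.21e-14). SMAD9, a receptor SMAD, was 2.43-fold higher with BMP4 (10.9 to 12.7 against 4.54 to 5.14 CPM).

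Antagonists of BMP differed in both directions, with 2 of 9 higher and 1 lower with BMP4, beside 2.41% and 1.6% of all genes. NOG stood at 3.25, 2.54 and 3.21 CPM against 13.3, 13.2 and 13 CPM (4.38-fold, log2 2.13, SE 0.23, adjusted p = 5.72e-10), and untreated cells held 0.0553 ± 0.0642 CPM. CHRD was 3.63-fold higher with BMP4 at 0.635 to 0.703 CPM against 0.132 to 0.247 CPM. NBL1 was 2.19-fold lower, a value that fell to log2 -0.94 without replicate 1 of BMP4. Of 4 BMP receptors 0 were called, with BMPR2 the most different at 88.1 to 93.2 against 53.1 to 56 CPM (1.65-fold lower with BMP4).

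Homeobox and GATA factors known to respond to BMP were the list with the highest median, 1.35 on the log2 scale, with 13 of 25 higher and 2 lower. The median over all genes was 0.01, with 2.41% higher and 1.6% lower. DLX2 stood at 0.452, 0.25 and 0.396 CPM with Activin+BMP4 and at 5, 5.59 and 4.34 CPM with BMP4 (13.4-fold, adjusted p = 4.86e-16). DLX5 stood at 0.945, 0.792 and 0.484 CPM against 3.88, 3.64 and 3.28 CPM (4.81-fold), and its neighbour DLX6 at 0.822, 0.917 and 1.1 CPM against 4.7, 5.29 and 3.99 CPM (4.91-fold). DLX3, a factor of surface ectoderm and placenta, was 8.41-fold higher with BMP4 (0.703 to 1.31 against 0 to 0.208 CPM). CDX1, a caudal homeobox factor and target of WNT signalling, went the other way, at 3.9, 3.79 and 4.09 CPM against 0.345, 0.339 and 0.664 CPM (8.56-fold lower, adjusted p = 1.54e-14). CDX2 was not called, at 6.29 to 8.76 against 8.67 to 9.87 CPM (adjusted p = 0.173), and was listed at 0 in untreated cells. IRX1 was 7.84-fold higher with BMP4, where it stood at 1.27 to 3.41 CPM beside 3.15 ± 0.574 CPM in untreated cells.

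Amnion markers were higher with BMP4 in 8 of 20 cases and lower in 0, with a median of 1.03 on the log2 scale. Over all genes 2.41% were higher and 1.6% lower, with a median of 0.01. HAND1, a basic helix-loop-helix factor of amnion and extraembryonic mesoderm, stood at 1.07, 0.709 and 0.572 CPM with Activin+BMP4 and at 7.42, 7.71 and 7.74 CPM with BMP4 (9.62-fold, log2 3.27, SE 0.2, adjusted p = 8.28e-17). TFAP2A, an AP-2 factor of surface ectoderm and amnion, stood at 20.8, 17.6 and 17.7 CPM against 63.7, 64.1 and 59.5 CPM (3.34-fold, adjusted p = 7.38e-16). GATA2 stood at 6.9, 6.05 and 4.71 CPM against 21.1, 20.8 and 20 CPM (3.5-fold, adjusted p = 3.85e-12). All 3 were above their untreated levels of 0.095 ± 0.0611, 1.45 ± 0.552 and 0.434 ± 0.218 CPM in both conditions. GATA3 showed the same order below the threshold, at 28 to 30 against 50.5 to 55.8 CPM (1.81-fold). TBX3 was 3.43-fold and GRHL3, a factor of surface epithelium, 4.31-fold higher with BMP4. The late amnion markers GABRP and VTCN1 stayed under 1.2 CPM in all 6 libraries and were not called. The summed level of the list was 347 to 374.5 CPM with Activin+BMP4, 540.1 to 566.9 CPM with BMP4 and 114.5 to 123.1 CPM in untreated cells.

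Of 18 trophoblast genes only 10 passed the filter on low counts, and 2 of these were higher with BMP4, where 2.41% of all genes were. These 2 were ENPEP, a membrane aminopeptidase, at 16.3, 16.5 and 15.8 against 3.08, 3.25 and 3.65 CPM (4.88-fold), and KRT7 at 6.38 to 7.5 against 2.13 to 2.29 CPM. The untreated level of KRT7, 4.99 ± 0.974 CPM, lay between the conditions, and that of ENPEP, 1.02 ± 0.0638 CPM, lay below both. The placental hormone genes CGA and CGB5 and the factor GCM1 did not pass the filter. Genes of epithelial junctions and keratins were higher in 4 of 19 cases and lower in 0. CLDN10, a tight junction claudin, stood at 28.9, 31.2 and 30 CPM against 142, 138 and 140 CPM (4.65-fold, adjusted p = 1.37e-24), with 46.1% of its exon bases opposite DZIP1. CLDN4 stood at 9.9 to 12.8 against 31.2 to 33.2 CPM (2.9-fold). KRT8 and KRT18, the keratin pair of simple epithelium, were 1.93-fold and 1.56-fold higher and missed the 2-fold threshold. CDH1, the epithelial cadherin, was not called (512 to 536 against 525 to 545 CPM, adjusted p = 0.615), while CDH2, the neural and mesodermal cadherin, stood at 155, 148 and 159 CPM against 59.3, 64.9 and 62.9 CPM (2.47-fold lower, adjusted p = 1.69e-16).

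NANOG was the member of the pluripotency list that was called, at 290, 280 and 267 CPM with Activin+BMP4 and 123, 123 and 123 CPM with BMP4 (2.27-fold lower, log2 -1.18, SE 0.04, adjusted p = 1.06e-26). Untreated cells lay between at 187 ± 2.32 CPM, and neither condition differed from them by 2-fold. POU5F1 was 1.24-fold lower with BMP4 and SOX2 1.09-fold higher, and neither was called. Lists of the cell cycle (22 tested) and cholesterol synthesis (16) had 0 calls in either direction by edgeR. Some other lists held 1 or 2 called genes, where 4.01% of all genes tested were called. Of 18 HOX genes it was HOXB6, whose call from at most 0.129 CPM was lost in 8 of the alternative fits. SIX3 (higher) was called of 16 neural genes beside CDH2, and HEY1 (lower) of 17 Notch genes. ANKRD1 and DLC1 (higher) were called of 16 YAP targets.

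**Figure D4:**
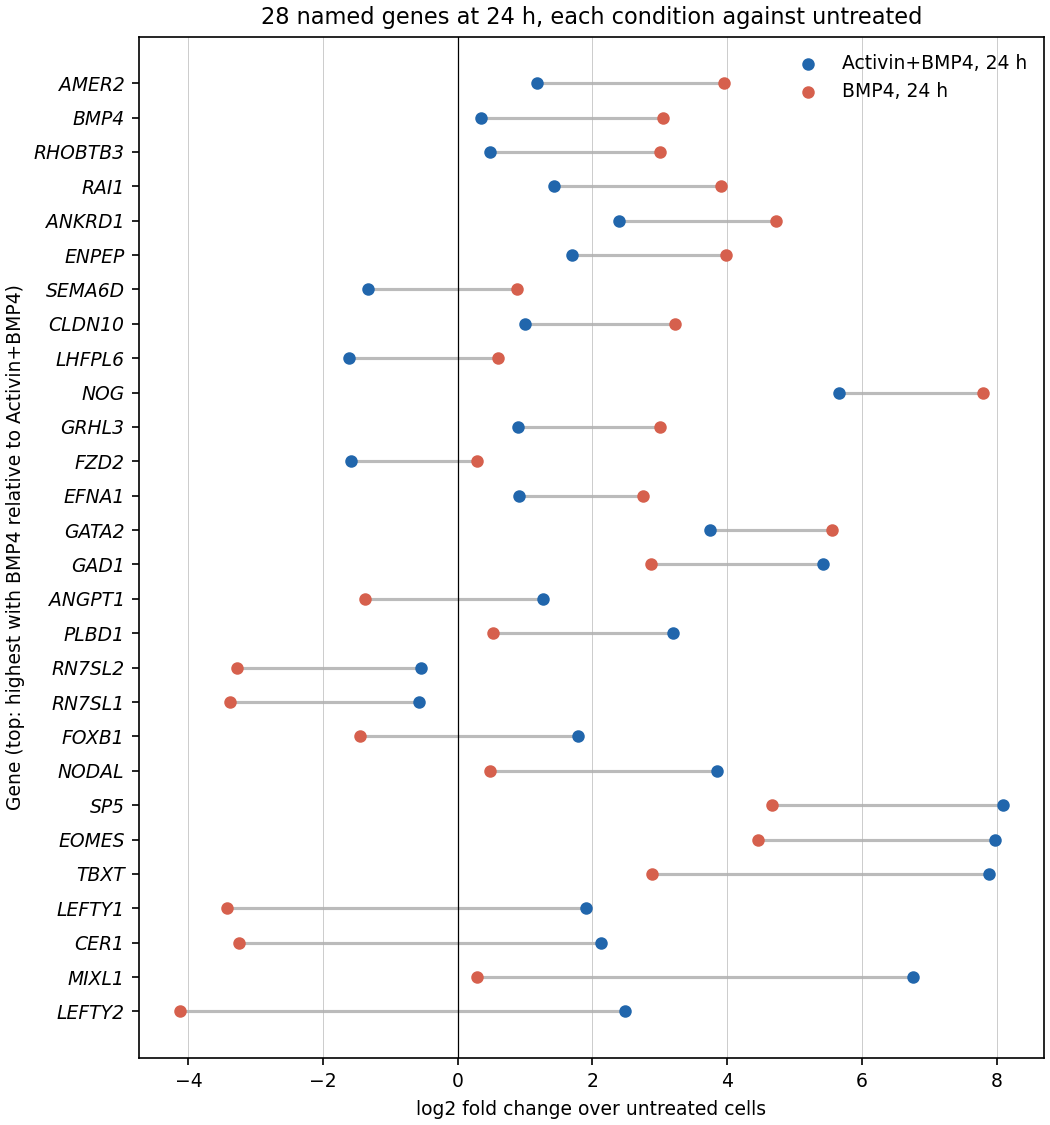
Log2 fold change over untreated cells of 28 of the genes named for their size of difference at 24 h, 14 highest and 14 lowest, for Activin+BMP4 and for BMP4. LEFTY1, LEFTY2, CER1, FOXB1 and ANGPT1 lie on opposite sides of 0 in the 2 conditions, as do SEMA6D, LHFPL6 and FZD2, while EOMES, SP5, TBXT and NOG are above 0 in both.

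By the rule that took the 15 largest differences each way among genes at 10 CPM or more, some genes outside the lists stood out. PLBD1, a lysosomal phospholipase-like protein, stood at 91.8, 92.5 and 89.9 CPM with Activin+BMP4 and 15.4, 14.1 and 13.8 CPM with BMP4 (6.34-fold, adjusted p = 1.42e-28). ANGPT1, a ligand of the endothelial receptor TIE2, stood at 20.1, 17.6 and 18.7 CPM against 2.89, 2.88 and 3.24 CPM (6.25-fold). FOXB1, a forkhead factor, was 9.48-fold lower and GAD1, the enzyme that makes GABA, 5.9-fold lower with BMP4. Higher with BMP4 were AMER2, which binds APC at the membrane, at 18.4, 18.4 and 17.7 CPM against 2.63, 2.5 and 2.82 CPM (6.86-fold, adjusted p = 5.91e-19), and RHOBTB3, a protein with BTB domains, at 101, 102 and 103 CPM against 18.5, 15.9 and 18.9 CPM (5.74-fold, adjusted p = 2.76e-24). SEMA6D and LHFPL6 were 4.68-fold and 4.63-fold higher with BMP4. Against untreated cells both were called lower with Activin+BMP4 (log2 -1.34 and -1.61) and not called with BMP4 (0.88 and 0.6). RAI1 and EFNA1 were 5.56-fold and 3.57-fold higher.

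The rule also took RN7SL1 and RN7SL2, near-identical genes of the signal recognition particle RNA whose counts cannot be assigned with certainty. RN7SL1 stood at 78.5, 64.3 and 27 CPM with Activin+BMP4 and 9.49, 7.71 and 7.07 CPM with BMP4 (log2 -2.81, SE 0.78, adjusted p = 0.00478). The library with 27 CPM was also the one with the highest share of the ribosomal IDs in its group. With the level of those IDs as a covariate the difference of RN7SL1 was log2 -0.46 (adjusted p = 0.362) and that of RN7SL2 -0.28 (0.646), so neither call held.

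At 12 h 279 genes (1.42%) were called between the conditions and at 36 h 1094 (5.58%), beside 787 at 24 h. The order of 24 and 36 h rests on the 2-fold threshold, since by the adjusted p alone 5735 genes passed at 24 h and 5429 at 36 h. These times rest on other libraries. Of 129 genes higher with BMP4 at 12 h, 83 (64.3%) were also called higher at 24 h, where they made up 17.5% of the calls, and of 150 lower genes 94 (62.7%) were called lower, 29.9% of the calls at 24 h. Of the genes called at 24 h, 254 of 473 (53.7%) were still called higher at 36 h and 178 of 314 (56.7%) lower, which is 42.9% and 35.5% of the calls at 36 h. LEF1 was the 1 gene called higher at 12 h and lower at 24 h, and SEMA3C the 1 gene called lower at 24 h and higher at 36 h. Of 16 streak genes 3 were called lower at 12 h (0.765% of all genes were), 7 at 24 h and 11 at 36 h (2.56% of all), and 1 was called higher, at 12 h. Of 20 amnion genes 6 were called higher at 12 h (0.658% of all), 8 at 24 h and 14 at 36 h (3.02% of all), and 0 were called lower by edgeR at any of these times.

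The change of the difference between times was tested itself, with 161 genes called from 12 to 24 h (0.821%, with 0.429% higher and 0.393% lower) and 260 from 24 to 36 h (1.33%, with 0.536% higher and 0.791% lower). Without replicate 1 of BMP4 at 12 h, which stood apart from the other libraries of its group, the first count was 219. With the level of the ribosomal IDs as a covariate it was 97, of which 82 were among the 161, and the second was 239. With Activin+BMP4, MIXL1 went from 4.75 ± 0.508 CPM at 12 h to 109 ± 4.24 at 24 h and 401 ± 5.25 at 36 h, and from 0.592 ± 0.105 to 1.24 ± 0.512 and 10.7 ± 0.807 with BMP4 (SD, n = 3). Its log2 difference thus went from -3 to -6.47 and then to -5.22. LEFTY1 followed another course with Activin+BMP4, from 117 ± 3.65 CPM at 12 h to 27.7 ± 0.6 at 24 h and 29.9 ± 4.23 at 36 h, and its difference shrank from log2 -8.06 to -5.32 and -2.75. NODAL was lower with BMP4 already at 12 h (log2 -4.97), while FGF4 was not called at 12 h (log2 -0.14) and was lower at 36 h (log2 -4.76).

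Several genes higher with BMP4 at 24 h had a smaller difference at 12 h. BMP4 stood at 7.16 ± 0.698 against 10 ± 0.359 CPM at 12 h and 11.2 ± 0.237 against 84.1 ± 6.55 CPM at 36 h, and its log2 difference rose by 2.22 between 12 and 24 h (SE 0.11, adjusted p = 1.47e-18). RHOBTB3 (2.23), CLDN10 (2.04) and ENPEP (1.85) showed changes of like size. TFAP2A was already higher at 12 h, with 33.7 ± 4.11 CPM with BMP4 against 7.08 ± 1.72 CPM (log2 2.25). From 24 to 36 h other genes parted. GATA6, a zinc finger factor of endoderm and mesoderm, stood at 1.29 ± 0.411 against 0.735 ± 0.111 CPM at 24 h and at 32.4 ± 2.12 against 0.702 ± 0.104 CPM at 36 h, a change of the log2 difference of -4.71 (SE 0.5, adjusted p = 3.31e-09). LHX1, a homeobox factor of the streak that was not called at 24 h, reached 13.5 ± 1.46 against 1.12 ± 0.183 CPM at 36 h. SEMA3C, a secreted guidance factor, turned over, from 19.9 ± 0.789 against 9.4 ± 0.571 CPM at 24 h to 10.4 ± 0.718 against 22.2 ± 1.5 CPM at 36 h.

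**Figure D5:**
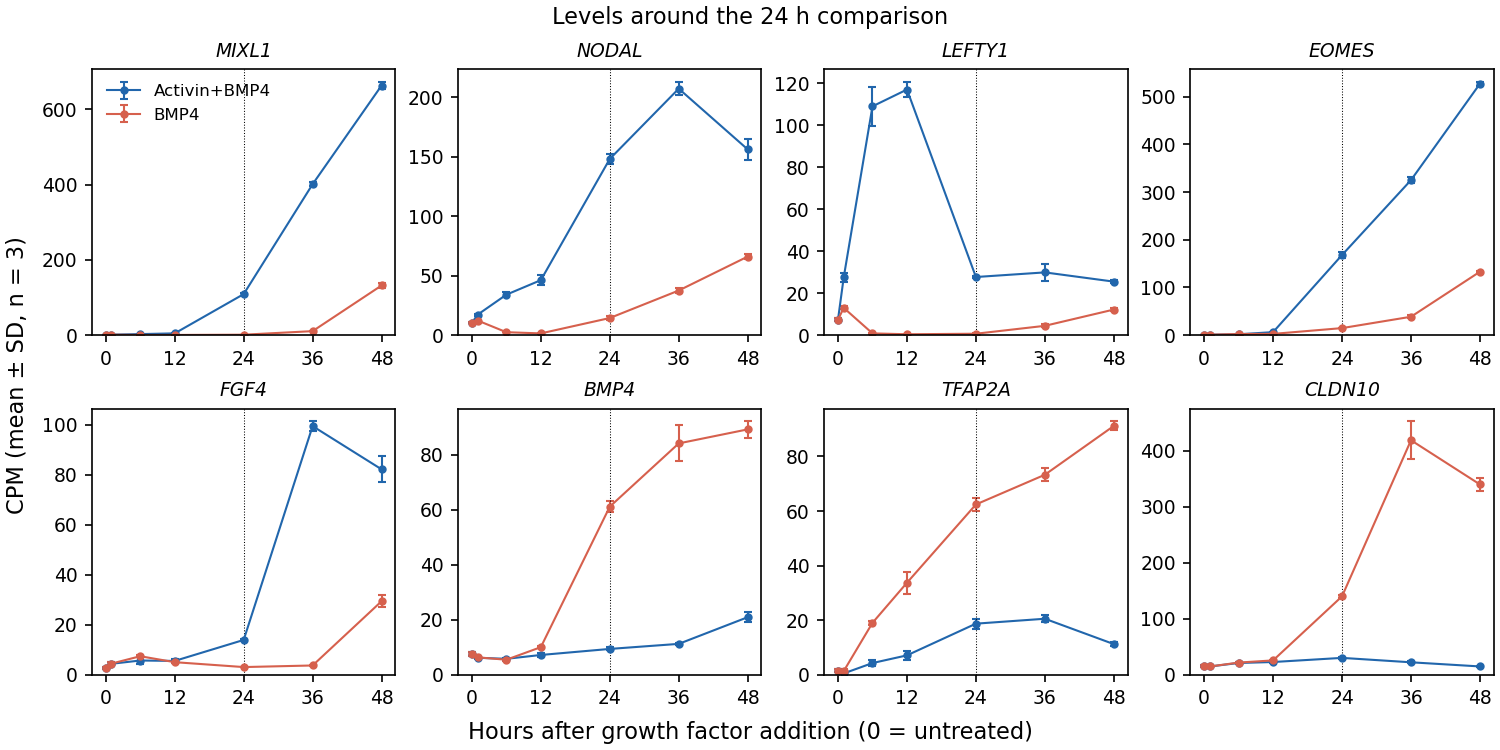
Mean CPM ± SD of 3 libraries per condition for 8 genes from 0 to 48 h. LEFTY1 with Activin+BMP4 is at 117 CPM at 12 h and 27.7 CPM at 24 h, while MIXL1 climbs from 4.75 to 109 CPM and BMP4 with BMP4 treatment from 10 to 61.1 CPM over the same times.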

How the data were processed

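RNA of 51 H1 libraries (17 groups of 3) was sequenced from 400 ng of total RNA per library with the KAPA RNA HyperPrep kit, per the labels' protocols. Per the submitters' processing notes, the authors used cutadapt 1.5, STAR 2.5.2a, RSEM 1.3.0 and GRCh38, whose roles, annotation and strand setting are not given in the sources used here. The deposited values are whole-number counts for 58051 genes, and whether they are rounded RSEM estimates is not given in the sources used here.

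The analysis used R 4.3.3 with edgeR 4.0.16. Its filterByExpr (minimum count 10 and minimum total 15, by group) kept 19603 genes with 99.95% of all counts. Libraries were scaled by TMM and all 51 entered 1 model with a mean per group and a common dispersion of 0.00349. The quasi-likelihood F test gave p-values, which were adjusted by Benjamini-Hochberg over all genes tested, and calls needed 0.05 and 2-fold. The scripts were tested on simulated data.

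Members, lists and rules were chosen with earlier results of these data known. Genes were named from the 24 h calls by size, 15 in each direction, if the higher group had a mean of 10 CPM or more, libraries did not overlap and the symbol was not clone-type. The rule also took up to 6 called members of each list and the 5 highest and 5 lowest changes of the difference between times; some genes it took are not reported here. Gene positions and overlaps are from a GRCh38 annotation and promoters from RefSeq. Alternatives were RLE factors, no scaling, no filter, a stricter filter (1 CPM in 3 libraries and on average), DESeq2 1.42.0, only the groups compared, a replicate block, the adjusted p alone, each library left out in turn and, chosen after seeing the data, the ribosomal IDs as a covariate.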

Additional observations from a re-analysis of the deposited data

Results flagged for a closer look

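Results are listed here because the difference between BMP4 and Activin+BMP4 changed between times by edgeR's quasi-likelihood test of the change itself, with adjusted p-values over all genes. Groups of 3 libraries are too small for the check of single outlying samples.

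From 12 to 24 h the change was called for 161 genes. It was negative on the log2 scale for MIXL1 (-3.47, SE 0.36, adjusted p = 4.73e-09), PCDH10 (-3.13, SE 0.2, adjusted p = 2.2e-15) and LEF1 (-2.61, SE 0.23, adjusted p = 2.98e-11). PCDH10, a protocadherin, was not called at 12 h, and LEF1 was higher with BMP4 at 12 h (log2 1.03) and lower at 24 h. RN7SL1 (-3.82, adjusted p = 0.0134) and RN7SL2 (-3.61, adjusted p = 0.0233) did not hold with the level of the ribosomal IDs as a covariate in edgeR (-0.8, adjusted p = 0.335, and -0.51, adjusted p = 0.658), and the other genes named here for either change kept their calls in that fit. It was positive for LEFTY1 (2.74), whose difference shrank, and for RHOBTB3 (2.23), BMP4 (2.22), CLDN10 (2.04) and ENPEP (1.85), whose differences grew.

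From 24 to 36 h the change was called for 260 genes. It was negative for GATA6 (-4.71), LHX1 (-3.32, SE 0.43, adjusted p = 2.97e-07), the receptor APLNR (-3.06), SOX17 (-2.72, adjusted p = 0.0152) and DKK1 (-2.72, adjusted p = 0.00987), whose levels with Activin+BMP4 were higher at 36 h. It was positive for LEFTY1 (2.57), LEFTY2 (2.49) and FGF8 (2.42), whose differences shrank, and for SEMA3C (2.17, SE 0.16, adjusted p = 2.78e-13), which changed sides.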

How the results depend on the processing

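The count of 787 genes at 24 h was 789 with RLE factors, 785 without scaling, 970 without the filter, 729 with DESeq2 and 678 with only the groups compared. With the stricter filter, which left 14962 genes, it was 517, and those against untreated were 976 (Activin+BMP4) and 846 (BMP4) and that at 36 h 720. By the adjusted p alone the counts were 5735 at 24 h, 7853 and 7598 against untreated, 1769 at 12 h, 5429 at 36 h, 1713 for the change from 12 to 24 h and 1735 for that from 24 to 36 h. Without the filter the changes between times gave 375 and 460 calls, and with the ribosomal covariate that from 12 to 24 h gave 97. Leaving out 1 library gave 690 to 737 at 24 h, 1492 to 1544 and 1297 to 1360 against untreated, 248 to 278 at 12 h, 1028 to 1092 at 36 h, and 112 to 219 and 212 to 285 for the changes. Replicate numbers are shared by the groups but not said to pair them. At 24 h deviations of same-numbered libraries correlated at 0.0791, -0.0406 and 0.168, and with the replicate block 777 genes were called, 770 of them shared. No value computed changed sign. Of 84 named genes and list members called at 24 h, 71 kept their call in all of the 14 settings in which they were tested, and filters left 4 of these untested in at least 1 setting. Besides those given above, SEMA3C (log2 -0.95), TJP3 (0.83) and CRABP2 (0.95) fell under 2-fold and INHBB had an adjusted p of 0.0559 with the ribosomal covariate in edgeR. SOX18 lost its call without replicate 2 (edgeR adjusted p = 0.0761) or 3 (0.085) of BMP4. For the changes between times, RN7SL1 was lost without replicate 3 of BMP4 at 12 h (edgeR adjusted p = 0.0533), RN7SL2 without any of 7 single libraries (0.0517 to 0.0723), SOX17 without replicate 1 (0.203) or 2 (0.0927) of BMP4 at 24 h, and DKK1 without replicate 2 of BMP4 at 24 h (0.129). Adjusted p-values are edgeR's, and the causes were not tested. Depth limits genes under 1 CPM, which rest on few counts per library.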

Other observations

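Among extracellular matrix genes 1 of 35 was higher and 1 lower with BMP4 at 24 h, where 2.41% of all genes were higher and 1.6% lower. LAMA4, a laminin chain, stood at 5.17, 6.06 and 5.51 CPM with BMP4 and 2.1, 2.04 and 2.51 CPM with Activin+BMP4 (2.52-fold). COL5A2, a fibrillar collagen chain, stood at 42.2, 40.8 and 43.7 CPM against 91.6, 87 and 93.8 CPM (2.15-fold lower). In the retinoic acid list 2 of 15 were higher and 0 lower: DHRS3, which reduces retinaldehyde, at 13, 12.3 and 15.2 against 5.88, 6.21 and 4.62 CPM, and CRABP2, a binder of retinoic acid, at 41.3, 33 and 41.1 against 15, 19.6 and 18.7 CPM. Untreated cells held 17.4 ± 1.39 CPM of DHRS3 and 74.1 ± 3.57 CPM of CRABP2 (SD, n = 3), and both were called lower than that with Activin+BMP4. ADM, the peptide adrenomedullin, was 2.48-fold higher with BMP4 (115 to 124 against 45.2 to 52.4 CPM), the 1 gene called of 17 in the hypoxia and glycolysis list.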
